A study of Mus musculus with 9 samples.

Results

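The genes described here encode 10 enzymes that remove superoxide, hydrogen peroxide and lipid peroxides: the superoxide dismutases Sod1, Sod2 and Sod3, the catalase Cat, the glutathione peroxidases Gpx1, Gpx3 and Gpx4, and the peroxiredoxins Prdx1, Prdx3 and Prdx6. They were taken by symbol from a table of 55367 mouse genes, and all 10 were present. RNA of the left ventricle was sequenced in 3 libraries after sham surgery (sham), 3 after myocardial infarction (MI) and 3 after MI with BPD treatment (MI+BPD). The MI and MI+BPD tissue dates from day 14 after infarction and combined the infarct core with the region around it, and sham hearts have no such region. The sources used here do not give strain, age, the meaning or dose of BPD or the time of the sham tissue. They also do not state whether each library came from its own animal. The p-values thus set group differences against the spread between libraries, which may not be the spread between animals.

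Superoxide dismutases turn superoxide, a by-product of respiration and of NADPH oxidases, into hydrogen peroxide. Catalase, glutathione peroxidases and peroxiredoxins then reduce the peroxide to water, catalase without a reducing partner, the others at the expense of glutathione or thioredoxin. The enzymes sit in different places: Sod2 and Prdx3 in mitochondria, which fill much of a heart muscle cell, Cat in peroxisomes, Sod1 and Prdx1 mainly in the cytosol, and Sod3 and Gpx3 are secreted. Gpx4 reduces peroxides within membrane lipids and is known as the main brake on ferroptosis, a cell death driven by iron and lipid peroxidation.

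The 3 glutathione peroxidases among the 10 are selenoproteins. Their messages hold a TGA codon inside the reading frame that is read as selenocysteine, the catalytic residue, instead of as a stop. The windows below are shown because these genes share this codon while their levels went in different directions. They were copied from the GENCODE M21 transcripts (build GRCm38, plus strand, each within 1 coding exon), with the selenocysteine codon in capitals. It is codon 47 of 201 in Gpx1 (chr9:108339430-108339474), codon 73 of 226 in Gpx3 (chr11:54907235-54907279) and codon 73 of 197 in Gpx4 (chr10:80054716-80054760).
Gpx1: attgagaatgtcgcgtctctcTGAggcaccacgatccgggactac
Gpx3: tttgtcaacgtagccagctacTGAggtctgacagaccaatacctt
Gpx4: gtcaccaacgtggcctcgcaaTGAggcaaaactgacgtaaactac
Of the 45 bases in each window, Gpx1 and Gpx4 shared 25, Gpx3 and Gpx4 24, and Gpx1 and Gpx3 21.

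Total counts per library ran from 14451410 to 19269072, and each of the 10 genes had between 232 and 14207 counts in every library. For Sod3 in sham the Poisson counting error of a library was 6.41% of the level, larger than the 2.30% SD between libraries, and for Gpx1 in sham the values were close at 4.19% and 4.83%. In every other gene and group the counting error was 0.964% to 2.59% and below the SD. Levels are in CPM, read counts relative to the effective library size after scaling by trimmed mean of M values (TMM), whose factors ran from 0.741 to 1.32. The markers of heart muscle were present in all 9 libraries with no marker at 0. The 10 cardiomyocyte markers summed to between 100278 and 104041 CPM in sham libraries. The sums ran from 20955 to 37739 CPM after MI and from 36250 to 55917 CPM after MI with BPD. The 8 fibroblast markers summed to 1110 to 1275, 14867 to 21997 and 20092 to 21692 CPM, and the 8 macrophage markers to 365 to 439, 740 to 1275 and 959 to 1267 CPM in the same order. Of 6 endothelial markers 4 fell in MI and 0 rose, of 6 smooth muscle and pericyte markers 2 rose and 3 fell, and of 5 red cell and 4 neutrophil markers tested none was called in edgeR, the neutrophil sum being 58.4 CPM in MI replicate 1 and at most 10.2 CPM elsewhere. Of the adipocyte markers only Fabp4 was tested, which fell. Plin1, Lep and Retn were at 0 in sham, and their 445, 45 and 284 counts all came from infarct libraries, opposite to Fabp4. These markers thus give no single direction for adipocytes. Over all genes tested, 37% were called higher in MI and 31.9% lower. In bulk tissue, fewer cells of a type and less RNA per cell cannot be told apart, and the part of cell composition in the differences below was not tested.

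In MI against sham, 7 of the 10 genes fell (Sod1, Sod2, Cat, Gpx4, Prdx1, Prdx3, Prdx6) and 3 rose (Sod3, Gpx1, Gpx3) by edgeR's quasi-likelihood test at an adjusted p under 0.05. Over all 15138 genes tested, 68.9% were called, 37% higher and 31.9% lower, and the libraries of the groups did not overlap in 74.4% (40.1% higher, 34.3% lower), as in 10 of the 10. Calls and complete separation are thus common in this comparison, and the sizes of the changes carry more than their number. The median log2 change of the 10 genes was -0.92, beside 0.07 over all genes tested. The largest decreases were those of the mitochondrial enzymes Sod2 and Prdx3, and the largest increases those of the secreted enzymes Sod3 and Gpx3.

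**Figure D1:**
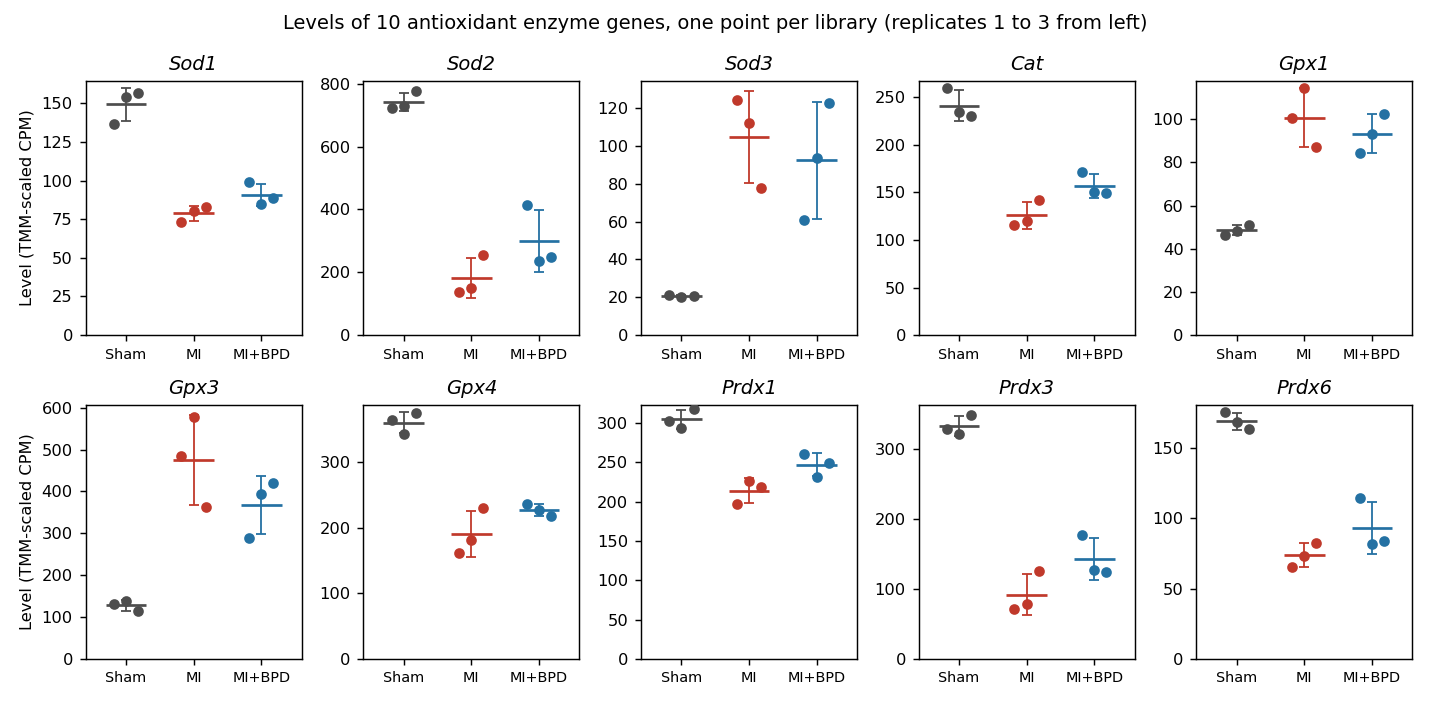
Level of each gene in TMM-scaled CPM (vertical axis, from 0) in sham, MI and MI+BPD. Each point is 1 library, the long bar the mean and the whisker the SD of 3 libraries. Sham libraries lie above all others for 7 genes and below all others for Sod3, Gpx1 and Gpx3.

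Of the superoxide dismutases, Sod1 and Sod2 fell in MI and Sod3 rose. Sod2, the manganese enzyme of the mitochondrial matrix, had 722, 728 and 776 CPM in sham, 138, 151 and 254 CPM in MI and 413, 237 and 248 CPM in MI+BPD (replicates 1 to 3). The highest MI library remained far below the lowest sham library, and MI replicate 3 and MI+BPD replicate 1 were the high ones of their groups. Sod2 fell 4.09-fold in MI, a log2 change of -2.03 ± 0.28 (SE, edgeR adjusted p = 2.1e-04). Sod1, the cytosolic copper and zinc enzyme, had 137, 154 and 157 CPM in sham, 73.1, 80.3 and 82.9 CPM in MI and 99.0, 84.8 and 88.5 CPM in MI+BPD. It fell 1.90-fold, a log2 change of -0.92 ± 0.09 (SE, edgeR adjusted p = 5.5e-05), with all sham libraries above the rest. Sod3, the extracellular enzyme that binds to matrix and cell surfaces, had 21.2, 20.3 and 20.6 CPM in sham, 124, 112 and 77.6 CPM in MI and 60.9, 93.6 and 123 CPM in MI+BPD. Here the sham libraries were nearly equal, and both infarct groups were higher and more scattered. Sod3 rose 5.06-fold, a log2 change of 2.34 ± 0.26 (SE, edgeR adjusted p = 8.1e-05).

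Cat, the peroxisomal catalase, had 259, 234 and 230 CPM in sham, 116, 120 and 142 CPM in MI and 171, 150 and 149 CPM in MI+BPD. It fell 1.92-fold in MI, a log2 change of -0.94 ± 0.11 (SE, edgeR adjusted p = 1.1e-04). The 3 groups did not overlap, with sham highest and MI lowest.

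Among the glutathione peroxidases, Gpx3 rose most. Gpx3, the secreted enzyme of plasma and extracellular fluid, had 130, 139 and 113 CPM in sham, 485, 578 and 363 CPM in MI and 289, 394 and 421 CPM in MI+BPD. It rose 3.73-fold, a log2 change of 1.90 ± 0.20 (SE, edgeR adjusted p = 7.3e-05), and its highest sham library was below every infarct library. Gpx1, the widely expressed intracellular enzyme, had 46.6, 48.0 and 51.2 CPM in sham, 101, 114 and 86.9 CPM in MI and 84.3, 93.2 and 102 CPM in MI+BPD. It rose 2.07-fold, a log2 change of 1.05 ± 0.11 (SE, edgeR adjusted p = 7.5e-05). Gpx4, the lipid peroxide enzyme, had 364, 342 and 374 CPM in sham, 161, 181 and 229 CPM in MI and 236, 226 and 218 CPM in MI+BPD. It fell 1.89-fold, a log2 change of -0.92 ± 0.13 (SE, edgeR adjusted p = 2.7e-04), opposite in sign to the other two selenoproteins. A processed copy, Gpx4-ps2, had 85 to 141 counts per library against at least 3916 for Gpx4, and reads of these near-identical sequences could be split by the authors' counting.

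All 3 peroxiredoxins fell, by very different amounts. Prdx3, the mitochondrial member that takes electrons from thioredoxin 2, had 329, 322 and 349 CPM in sham, 71.7, 78.0 and 126 CPM in MI and 178, 127 and 124 CPM in MI+BPD, and fell 3.63-fold (log2 change -1.86 ± 0.22, SE, edgeR adjusted p = 1.2e-04). Prdx6, which uses glutathione and also acts on membrane phospholipids, had 175, 168 and 163 CPM in sham, 65.6, 73.0 and 82.6 CPM in MI and 114, 81.5 and 83.5 CPM in MI+BPD. It fell 2.29-fold (log2 change -1.20 ± 0.14, SE, edgeR adjusted p = 1.1e-04), and its MI+BPD replicate 2 lay within the MI range while replicate 3 lay just above it. Prdx1, the cytosolic member, had 303, 294 and 317 CPM in sham, 197, 227 and 219 CPM in MI and 260, 232 and 249 CPM in MI+BPD. Its decrease was the smallest of the 10, 1.42-fold (log2 change -0.51 ± 0.10, SE, edgeR adjusted p = 1.3e-03).

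Set against the other genes tested, 8.92% had a log2 change larger in size than that of Sod3, 12.1% than that of Sod2, 13.9% than that of Gpx3 and 14.5% than that of Prdx3. This share was 29.1% for Prdx6 and 33.8% for Gpx1. For Sod1, Cat and Gpx4 it was 37.7% to 38.4%, and for Prdx1 58.8%. Sod3, Sod2, Gpx3 and Prdx3 therefore stood toward the outer end of a comparison in which most genes differed, and Prdx1 did not.

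The smaller decreases depended on the scaling in size and in whether they passed, and among the 10 genes only Prdx1 changed sign. Scaled by library totals alone, all genes tested had a median of 0.81 in place of 0.07, 85.6% of called genes were higher in place of 53.6%, and 3 of the 10 genes rose and 4 fell. Sod2 (-1.32), Prdx3 (-1.15), Prdx6 (-0.47) and Cat (-0.21, adjusted p = 0.0492) still fell. Sod1 (-0.19, adjusted p = 0.0526) and Gpx4 (-0.20, adjusted p = 0.108) did not pass, and Prdx1 was at 0.22 (adjusted p = 0.0600, all edgeR). Sod3 (3.09), Gpx3 (2.65) and Gpx1 (1.79) rose under that scaling too. Mitochondrially encoded genes took 34.4% to 35.2% of counts in sham libraries, 11.4% to 18.2% after MI and 17.6% to 25.7% after MI with BPD. With those genes left out before TMM scaling the 10 calls and their directions were the same.

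**Figure D2:**
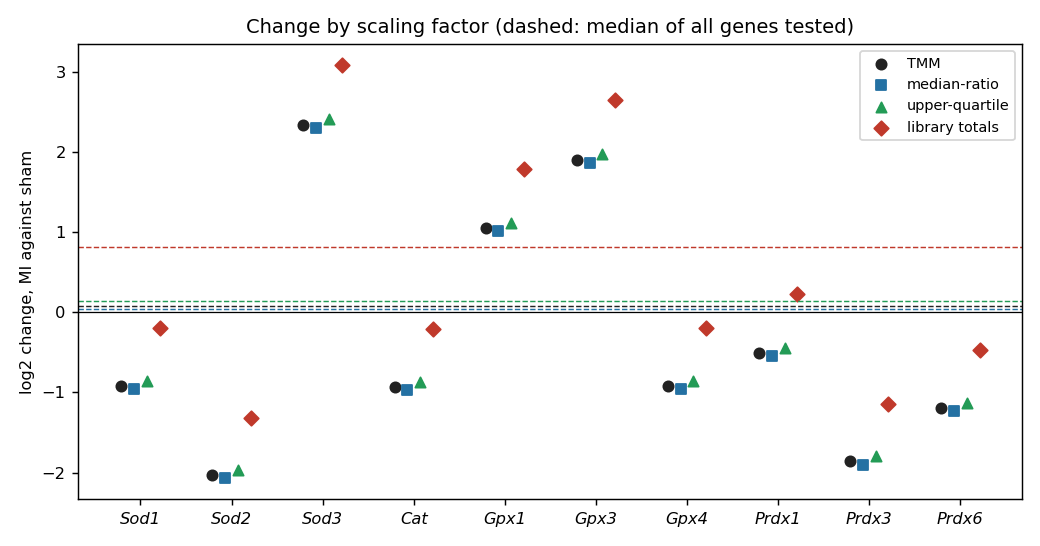
Log2 change of each gene in MI against sham under 4 scalings (marker shapes), with the median change of all genes tested under each scaling as a dashed line. TMM, median-ratio and upper-quartile values lie close together, and library totals move every gene up, so that Prdx1 changes sign.

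Ratios between genes of the same enzyme class, taken within each library, do not depend on the scaling. There were 9 such ratios, and in MI against sham the groups did not overlap in any of them. Ratios of a class share genes, so the 9 are not independent results. The share of separated ratios among other gene pairs was not computed for any comparison, and 74.4% of single genes separated in MI against sham. With 3 libraries against 3 the exact permutation test (2-sided) cannot go below p = 0.1, which all 9 had, and the adjusted p over the 33 relations computed was 0.165. Sham libraries held 35.8 Sod2 reads for each Sod3 read (geometric mean), against 1.70 in MI and 3.27 in MI+BPD. On the log2 scale this ratio was 5.16 ± 0.07 in sham and 0.77 ± 0.83 in MI (SD, n = 3), and it was 21.1-fold lower in MI and far more variable there. The ratio of Sod1 to Sod3 was 9.40-fold lower in MI, and that of Gpx3 to Gpx4 was 7.03-fold higher, from 0.353 in sham to 2.48 (geometric means). In MI+BPD against sham the groups did not overlap in any of the 9 ratios either, and in MI+BPD against MI they overlapped in all 9. Prdx1 and Prdx3 reads were nearly balanced in sham, at -0.129 ± 0.0097, with Prdx1 2.63-fold higher relative to Prdx3 in MI.

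**Figure D3:**
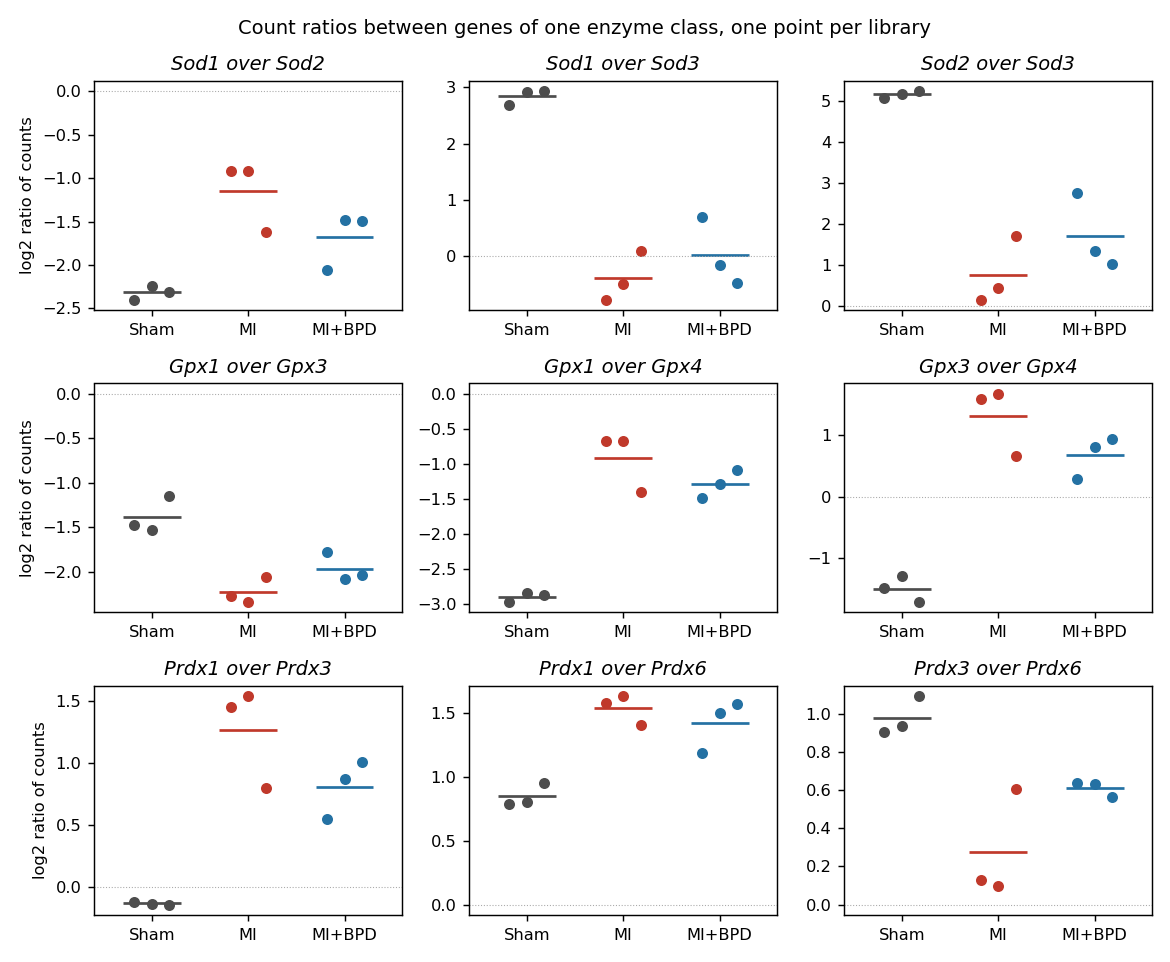
Log2 ratio of counts between genes of the same class (vertical axis) in each library, with the group mean as a bar. All 9 ratios separate the sham libraries from the MI libraries, and in all 9 the MI and MI+BPD libraries overlap. Ratios of a class share genes, and the share separated among other gene pairs was not computed.

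Per length of transcript, the genes can be ordered within a group. CPM were divided by the length in kilobases of the principal transcript in GENCODE M21, from 641 bases for Sod1 to 5861 for Sod2. In sham, Gpx4 (376 ± 16.7 CPM per kilobase) and Prdx1 (348 ± 13.3) were highest, with overlapping libraries. Sod1 (233 ± 16.8) and Prdx3 (226 ± 9.49), which also overlapped, came next, then Sod2 (127 ± 5.05), Cat (92.3 ± 6.13), Gpx3 (79.96 ± 8.14) and Prdx6 (70.8 ± 2.49), the last 2 overlapping, and Gpx1 (45.3 ± 2.19) and Sod3 (5.54 ± 0.13) were lowest (SD, n = 3). In MI, Gpx3 (298 ± 67.9), Prdx1 (244 ± 17.9) and Gpx4 (199 ± 36.7) led, each overlapping the next, followed by Sod1 (123 ± 7.92). Gpx1 (93.9 ± 12.7), Prdx3 (62.1 ± 20.0) and Cat (48.2 ± 5.49) formed an overlapping run, and so did Sod2 (31.0 ± 10.8), Prdx6 (30.9 ± 3.57) and Sod3 (28.0 ± 6.48). In MI+BPD the order began with Prdx1 (282 ± 16.5), Gpx4 (237 ± 9.31) and Gpx3 (231 ± 43.7), and ended with Prdx6 (39.0 ± 7.71) and Sod3 (24.7 ± 8.27). The order depends on the length used: with the union of all exons Prdx3 was highest in sham, Gpx3 in both infarct groups, and Prdx6 was lowest in both infarct groups.

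Sod2 and Prdx3 were set against 34 nuclear genes of oxidative phosphorylation, which like them encode proteins of mitochondria. All 34 fell in MI, with a median of -1.83, where 31.9% of all genes were called lower. All 34 also fell with library totals only (median -1.12), where 11.7% of all genes were called lower. The level of Prdx3 relative to the mean of these genes differed little, at -0.97 ± 0.05 in sham hearts, -1.02 ± 0.04 after MI and -0.96 ± 0.06 after MI with BPD (log2 CPM difference, SD, n = 3), and the 3 groups overlapped. Relative to the same mean, Sod2 was at 0.18 ± 0.02 in sham hearts, -0.047 ± 0.047 after MI and 0.088 ± 0.095 after MI with BPD. Its MI libraries lay below all sham libraries, a difference of -0.23, and below all MI+BPD libraries, a difference of 0.13. The exact permutation p was 0.1 for each of these, the smallest it can give (adjusted p = 0.165). The summed level of the oxidative phosphorylation genes ran from 29936 to 32499 CPM in sham libraries, 6799 to 11984 CPM after MI and 11061 to 17082 CPM after MI with BPD, and the libraries highest in it within each infarct group were again MI replicate 3 and MI+BPD replicate 1.

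In MI+BPD against MI, none of the 10 genes was called in edgeR, and neither was any other gene (0% of 15138, smallest adjusted p = 0.369). The mean was higher in MI+BPD for the 7 genes that fell in MI and lower for the 3 that rose (50.7% of all genes were higher and 49.3% lower by sign), and since both comparisons use the same MI libraries this is given only as a description. At an unadjusted p under 0.05, 13.5% of all genes (8.62% higher, 4.88% lower) and 4 of the 10, all higher, stood out. These were Prdx3 (log2 change 0.64, 95% interval 0.14 to 1.13), Cat (0.32, 0.072 to 0.56), Sod2 (0.72, 0.12 to 1.33) and Prdx6 (0.34, 0.025 to 0.65). Their edgeR adjusted p was 0.369 each, so none passed. The groups' libraries did not overlap for Sod1, Cat and Prdx1, each with a higher MI+BPD level, while 13.9% of all genes were separated, 6.63% higher and 7.32% lower.

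The intervals leave room for sizeable differences in both directions for some genes. Gpx3 stood at 475 ± 108 CPM in MI and 368 ± 69.6 CPM in MI+BPD (SD, n = 3), a log2 change of -0.37 with a 95% interval from -0.81 to 0.071 (edgeR adjusted p = 0.411). For Gpx4 the change was 0.25 (-0.043 to 0.55, adjusted p = 0.407), for Sod3 -0.18 (-0.71 to 0.35, adjusted p = 0.733) and for Gpx1 -0.11 (-0.36 to 0.14, adjusted p = 0.649). Sod1 and Prdx1, both with the narrowest intervals, were at 0.20 (-0.0021 to 0.41) and 0.21 (-0.013 to 0.42).

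This comparison rested on single libraries. Without MI replicate 3, edgeR called 1353 of 15453 genes tested, 1126 higher and 227 lower. Among them were Sod2 (1.05, adjusted p = 0.0364), Prdx3 (0.93, 0.0334), Cat (0.42, 0.0394) and Gpx4 (0.41, 0.0394), all higher in MI+BPD. No other library, left out alone, gave a call among the 10. Without MI+BPD replicate 1, Sod2 was at 0.41, Prdx3 at 0.43, Prdx6 at 0.14 and Sod3 at 0.024. Limma-voom with quality weights called 1063 of 15138 genes, 820 higher and 243 lower, with Sod2, Prdx3 and Cat among the higher (adjusted p from 0.0384 to 0.0427). DESeq2 called 12 of 15138 genes and none of the 10. MI replicate 3 was the MI library nearest to sham for 9 of the 10 genes, and MI+BPD replicate 1 was that of its group for 10 of 10. How often these libraries were nearest to sham over all genes was not computed. The same libraries had the highest summed cardiomyocyte markers of their groups, 37739 CPM against 20955 and 22741 in the other MI libraries, and 55917 CPM against 36250 and 36267 in the other MI+BPD libraries. The part of this difference in the levels of the 10 genes was not tested.

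In MI+BPD against sham the same 7 genes fell and the same 3 rose, where 59.6% of all genes were called, 31.8% higher and 27.8% lower. The groups did not overlap for 10 of the 10 genes and for 68.5% of all genes (35.8% higher, 32.7% lower). This comparison shares the sham libraries with the first. The largest changes were those of Sod3 at 2.16 ± 0.26, Gpx3 at 1.53 ± 0.20, Sod2 at -1.31 ± 0.27 and Prdx3 at -1.23 ± 0.22 (SE, edgeR adjusted p from 2.1e-04 to 3.1e-03). Gpx1 was at 0.94, Prdx6 at -0.86, Sod1 at -0.72, Gpx4 at -0.67 and Cat at -0.62. Prdx1 was at -0.30 ± 0.10 (SE, edgeR adjusted p = 0.0225), and this call ended without sham replicate 1 (0.0523) or 3 (0.0743), without MI+BPD replicate 2 (0.0877) or 3 (0.0593), when no low counts were filtered out (0.103) and with a replicate block (0.0564). With library totals only, 3 rose and 3 fell, 86.8% of called genes were higher in place of 53.4%, and the values of Sod1 (-0.20), Cat (-0.10), Gpx4 (-0.14) and Prdx1 (0.22) did not pass.

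**Figure D4:**
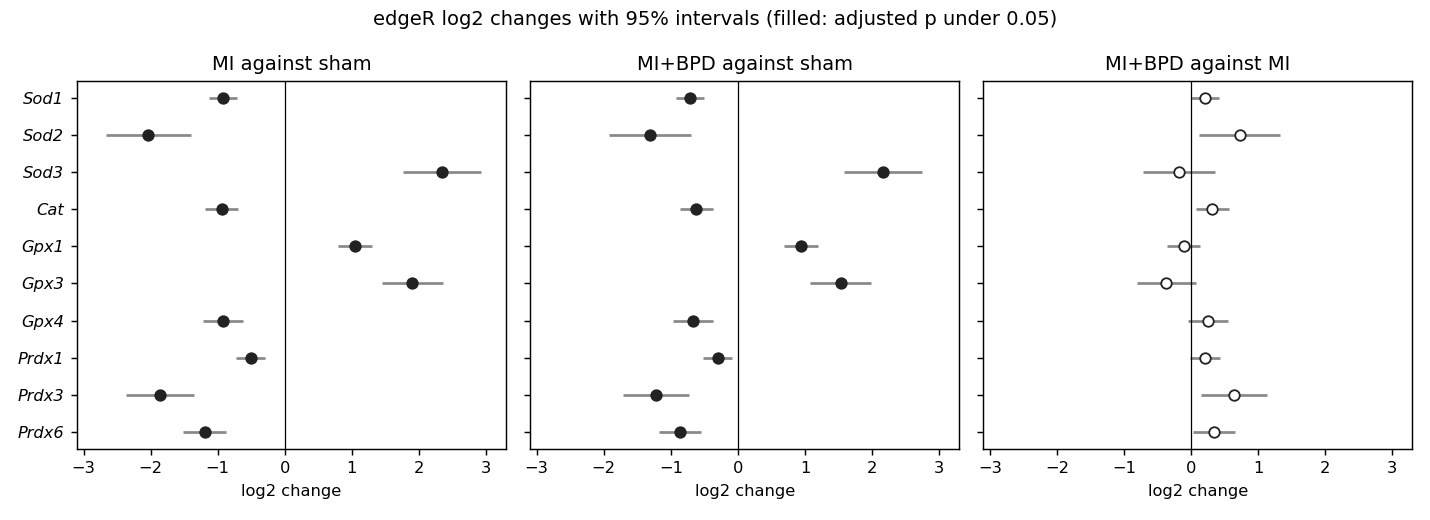
Log2 change (horizontal axis) of each gene with its 95% interval in the 3 comparisons, filled where the adjusted p was under 0.05. All 10 genes pass in both comparisons with sham, and none passes in MI+BPD against MI, where Sod2 and Prdx3 have the largest values.

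The relatives of these enzymes outside the 10 also went both ways in MI against sham, where 37% of all genes were called higher and 31.9% lower. Of the other peroxiredoxins, Prdx5, found in mitochondria and peroxisomes, fell from 220 ± 9.13 to 85.8 ± 14.6 CPM (SD, n = 3) and the cytosolic Prdx2 from 241 ± 12.0 to 125 ± 21.9 CPM, while Prdx4, the member of the endoplasmic reticulum, rose from 11.3 ± 2.30 to 27.8 ± 2.86 CPM. Prdx2 was at -0.22 and did not pass with library totals only (adjusted p = 0.0644). Both other tested glutathione peroxidases, Gpx7 and Gpx8 of the endoplasmic reticulum, rose, by 2.05 ± 0.16 and 1.24 ± 0.13 on the log2 scale (SE). Gpx2, Gpx5 and Gpx6 had at most 1 count over all libraries and were not tested.

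The supply of reducing power was mixed. Of 21 thioredoxin and glutathione genes, 5 rose, 10 fell and 6 did not pass (median -0.09, beside 0.07 for all genes, of which 37% were called higher and 31.9% lower). With library totals only, 10 rose and 6 fell (median 0.65, beside 0.81), where 69.3% of all genes were called higher and 11.7% lower. Txn2 and Txnrd2, the mitochondrial thioredoxin and its reductase that serve Prdx3, fell by 1.31 ± 0.16 and 1.06 ± 0.13 on the log2 scale, the glutaredoxin Glrx3 by 0.97 ± 0.11 and the stress-induced sestrin Sesn1 by 0.98 ± 0.11 (SE). Sesn3 rose by 1.05 ± 0.13, Sesn2 by 1.02 ± 0.18 and G6pdx, the first enzyme of the pentose phosphate pathway and a source of NADPH, by 1.29 ± 0.18 (SE). Gclc, the catalytic subunit for glutathione synthesis, rose by 0.32 ± 0.10 (adjusted p = 0.0138), a call that ended without sham replicate 2 (0.0545) or 3 (0.0514) or MI replicate 1 (0.0513).

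Of 13 genes for copper handling, selenium transport and selenoprotein synthesis, 4 rose, 6 fell and 3 did not pass (median -0.11, beside 0.07 for all genes, of which 37% were called higher and 31.9% lower). Under library totals alone 10 were higher and 1 lower, with a median of 0.63 that lies below the 0.81 of all genes, of which 69.3% were called higher. Pstk and Sephs2, enzymes of selenocysteine synthesis, fell by 1.21 ± 0.13 and 0.92 ± 0.14 on the log2 scale, Secisbp2, which recruits the machinery that reads TGA as selenocysteine, by 0.63 ± 0.10, and the copper importer Slc31a1 by 0.52 ± 0.10 (SE). With library totals only Sephs2 was at -0.19 (edgeR adjusted p = 0.122), Secisbp2 at 0.10 (0.327) and Slc31a1 at 0.21 (0.0326). The call of Sephs2 was thus lost under that scaling, and the values of Secisbp2 and Slc31a1 changed sign. The copper pump Atp7a rose by 1.12 ± 0.12, the copper chaperone Atox1 by 0.56 ± 0.16, and Lrp8, a receptor for selenoprotein P, by 4.69 ± 0.63 from 10 counts over the sham libraries (SE). Selenop, the selenium carrier of plasma, had a mean of 438 ± 16.7 CPM in sham hearts and 577 ± 113 CPM after MI (SD, n = 3, adjusted p = 0.0473). That call ended with median-ratio factors, with only the 2 groups compared, with a replicate block and without any single library other than MI replicate 3 (adjusted p from 0.0528 to 0.175 over these settings). Ccs, the chaperone that loads copper into Sod1, was at -0.11 ± 0.10 (SE, adjusted p = 0.330), and is named after its value was seen.

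Of 13 NADPH oxidase and other source genes, 8 rose, 2 fell and 3 did not pass, with a median of 0.98 beside 0.07 for all genes, of which 37% were called higher and 31.9% lower. With library totals only 10 rose and 1 fell, near the 69.3% of all genes called higher under that scaling, with a median of 1.72 beside 0.81. Nox4, an oxidase found in fibroblasts among other cells, went from 1.11 ± 0.43 to 79.5 ± 18.8 CPM and Cybb, the phagocyte oxidase, from 22.7 ± 3.60 to 100.2 ± 24.5 CPM (SD, n = 3). Ncf4 and Ncf1, subunits of the phagocyte oxidase, rose by 2.11 ± 0.23 and 1.68 ± 0.22 on the log2 scale (SE). Maob, a monoamine oxidase of the outer mitochondrial membrane, fell by 1.88 ± 0.26. Xdh (xanthine oxidoreductase) fell by 0.78 ± 0.26 with overlapping groups (adjusted p = 0.0212), and this call ended without sham replicate 1 (0.0862) or MI replicate 2 (0.0778) or 3 (0.0768), when no low counts were filtered out (0.0836) and with library totals only (-0.030, 0.921). The fibroblast and macrophage markers were called higher in all 8 of 8 in each list, and their relation to this group was not tested.

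Of 18 genes for lipid peroxide substrates and their removal, 6 rose, 7 fell and 5 did not pass (median -0.12, beside 0.07 for all genes, of which 37% were called higher and 31.9% lower). Under library totals alone 9 rose and 3 fell, a smaller share of risers than the 69.3% of all genes, with a median of 0.62 beside 0.81. Gsta4, a glutathione transferase for lipid aldehydes, fell by 1.88 ± 0.21 on the log2 scale, the aldehyde dehydrogenase Aldh2 by 0.99 ± 0.11, Dhodh of the inner mitochondrial membrane by 0.92 ± 0.11 and Lpcat3, which places polyunsaturated chains in phospholipids, by 0.93 ± 0.14 (SE). Dhodh (-0.18, adjusted p = 0.186) and Lpcat3 (-0.19, 0.119) did not pass with library totals only. Acsl4, which activates the fatty acids most prone to peroxidation, rose by 0.57 ± 0.11 and Alox5ap by 1.13 ± 0.23 (SE). Slc3a2, a chain of the cystine importer, rose by 0.69 ± 0.14 and the paraoxonase Pon2 by 0.30 ± 0.08 (SE). The partner of Alox5ap, the lipoxygenase Alox5, fell from 16.6 ± 2.08 to 4.13 ± 1.05 CPM (SD, n = 3, edgeR adjusted p = 8.9e-04). Slc7a11, the other chain of the importer, had 0.385 ± 0.593 CPM in sham and 0.722 ± 0.327 CPM in MI (SD, n = 3). It was not called (edgeR adjusted p = 0.433). Alox5 and Slc7a11 are named after their values were seen. Peroxisome genes, which share their organelle with Cat, rose in 0 of 26 and fell in 23, with a median of -0.67. The sign of this median depended on the scaling. With library totals only 7 rose, 9 fell and 10 did not pass, where 69.3% of all genes were called higher and 11.7% lower. The list median lay below that of all genes under both scalings, at -0.67 beside 0.07 with TMM and 0.07 beside 0.81 with library totals. Examples are Pex11a, a division factor, at -1.99 ± 0.19, Amacr at -1.42 ± 0.13, the fatty acid transporter Abcd3 at -1.35 ± 0.16 and Hsd17b4 at -0.84 ± 0.09 (SE), the last at -0.11 and not passing with library totals only (adjusted p = 0.187). In MI+BPD against MI no gene of any of these lists was called in edgeR, and the list medians lay between -0.14 and 0.28 for the 7 lists, with 0.59 for oxidative phosphorylation and 0.66 for cardiomyocyte markers.

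**Figure D5:**
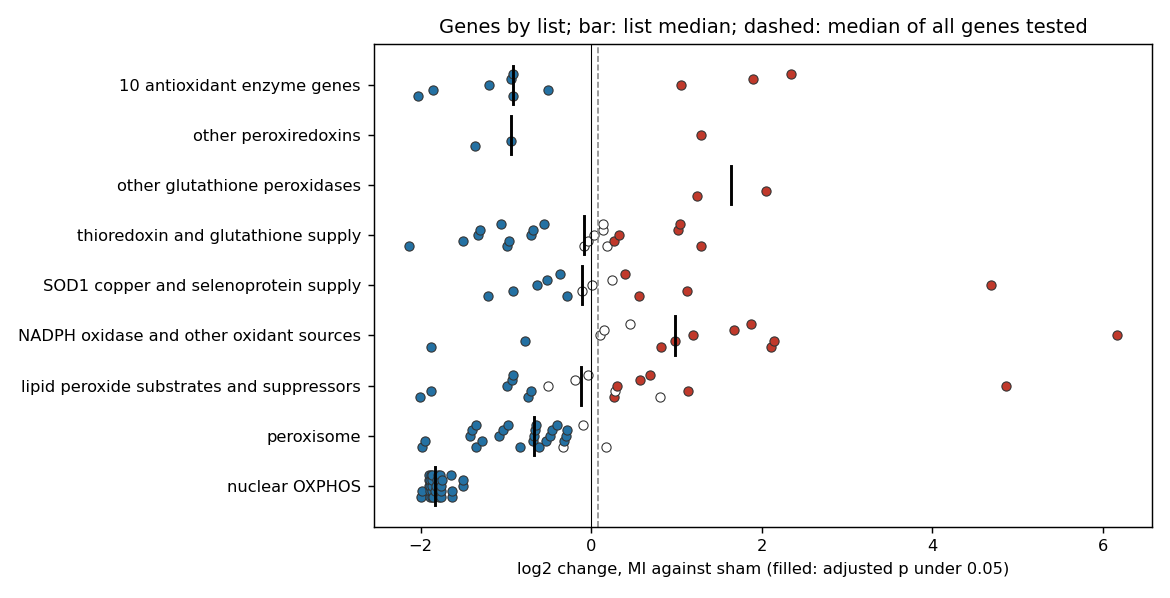
Log2 change in MI against sham (horizontal axis) of each tested gene by list, filled where the adjusted p was under 0.05, with the list median as a bar and the median of all genes as a dashed line. Peroxisome and oxidative phosphorylation genes lie almost wholly on the lower side under TMM scaling, at medians of -0.67 and -1.83. With library totals only these medians were 0.07 and -1.12, beside 0.81 for all genes. Oxidant sources lie mostly on the higher side under TMM scaling, at 0.98.

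Over all 9 libraries, the genes most alike in log2 CPM were named for each of the 10 by Pearson's r. The libraries fall into separate groups, so r mostly reflects the difference between sham and the rest. The closest to Sod2 were Asb8, Acat1 and Slc25a11 (r 0.9995 to 0.9996), and to Prdx3 Dld, Hsd17b10 and Cycs (0.9993 to 0.9994). Gpx4 was closest to Eloc (0.9985), Prdx6 to Gcdh (0.998), Cat to Paip1 (0.996), Sod1 to Dnlz (0.995) and Prdx1 to Mb21d2 (0.994). Of the genes that rose, Sod3 was closest to Pip4k2a (0.998), Gpx3 to Synpo (0.998) and Gpx1 to Tyrobp and Litaf (0.997 each).

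Promoter windows of RefSeq (build GRCm38.p6, 250 bases before to 50 after a start) were found for 8 of the 10 genes. They were searched on both strands for TGACNNNGC, the core of the antioxidant response element bound by NRF2. These genes had 11 windows, since some have more than 1 start. The motif was in 2 of the 11, those of Sod1 and Prdx1, and in 12.4% of all 32851 windows of this length. These stretches are shown because both genes are cytosolic enzymes that fell in MI under TMM scaling, and the motif, on the minus strand in each, is in capitals.
Sod1: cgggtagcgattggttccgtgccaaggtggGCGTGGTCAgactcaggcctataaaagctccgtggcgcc
Prdx1: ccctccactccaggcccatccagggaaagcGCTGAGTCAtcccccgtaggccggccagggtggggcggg
The Sod1 stretch is chr16:90220676-90220744 and the Prdx1 stretch chr4:116685436-116685504, both on the plus strand. The matches begin 56 and 133 bases before the start. The remaining 6 matched genes had no match in their windows, which says nothing of binding elsewhere.

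The GENCODE M21 annotation places the Scaf4 gene over 650 bases of Sod1 on the opposite strand. Scaf4 had 246 to 619 counts per library, and since the strand setting of the counting is not given in the sources used here, reads of that stretch cannot be assigned to either gene with certainty. The copies Prdx6b, Prdx6-ps2 and Prdx1-ps had 0 counts in all libraries, which allows up to 3 counts each.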

How the data were processed

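The authors deposited raw read counts per gene symbol for 9 libraries of mouse left ventricle, 3 per group. Per the submitters' processing notes reads were aligned with STAR (version not given), and mm10, GRCm39 and mm39 are named without a role; the counting program is not given in the sources used here, so genes are matched by symbol. Whole-number counts with unequal totals show no normalization in the deposited values.

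The analysis used edgeR 4.0.16 (R 4.3.3) with TMM factors, filterByExpr (minimum count 10, minimum total 15, which all 10 genes passed), a group model over the 9 libraries fitted by robust quasi-likelihood (6 residual degrees of freedom), Benjamini-Hochberg adjustment over 15138 genes, calls at an adjusted p under 0.05. The SE follows from the F statistic. The fitting code was tested on simulated data. Floors for counts of 0 cover counting error only. Alternatives were DESeq2 1.42.0, limma-voom (limma 3.58.1), other scalings and filters, only the 2 groups compared, a replicate block, a threshold of 0.01, and each library left out.

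The members and lists were chosen with earlier results of these data known. Named genes were all members, per list up to 4 called genes of smallest adjusted p in each direction, and the most alike genes with a mean of at least 5 CPM and no predicted or clone name. Genes said to be named after their values were seen fall outside this rule. Log2 CPM used a prior count of 2. Protein sequences were not used here.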

Additional observations from a re-analysis of the deposited data

How the results depend on the processing

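In MI against sham 197 of 200 values of the 10 genes under the alternatives kept direction and side of the threshold, and in MI+BPD against sham 189 of 200. In MI+BPD against MI only 197 values in place of 200 were compared, and 187 of them kept both. Leaving out 1 library gave 10 calls among the 10 genes in MI against sham each time and 9 to 10 in MI+BPD against sham. With library totals only, MI against sham had 10488 genes higher and 1765 lower with 4 of the 10 lower, and Prdx1 was at 0.22, Secisbp2 at 0.10 and Slc31a1 at 0.21; MI+BPD against sham had 9131 higher and 1383 lower, 6 of the 10 called with 3 lower, and Prdx1 at 0.22. In MI+BPD against MI that scaling put Sod1 at -0.0055 and Prdx1 at -0.0031, and Sod3 ranged from -0.44 to 0.024 with 1 library left out, the latter without MI+BPD replicate 1. There, of 15138 genes, DESeq2 called 12 (8 higher, 4 lower) and limma-voom 1063 (820 higher, 243 lower) with 3 of the 10, all 3 higher. Leaving out 1 library gave 0 to 1353 genes (0 to 1126 higher, 0 to 227 lower) and 0 to 4 of the 10 (0 to 4 higher), with MI replicate 3 as the library behind the high values. Against the median in place of the mean of the oxidative phosphorylation genes, the MI difference was -0.18 for Sod2 and 0.0024 for Prdx3. The cause of these shifts was not tested, beyond what each setting changes by construction.

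The libraries share replicate numbers. Deviations of same-numbered libraries from their group means correlated between -0.158 and 0.194 across genes, and a library matched its own number best in 3 of 18 cases, so the numbers were not taken as pairs. With a replicate block edgeR called 10054 genes in MI against sham, 0 in MI+BPD against MI and 8457 in MI+BPD against sham, with 10, 0 and 9 of the 10 genes.

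With 3 libraries a group, exact tests of ratios cannot pass 0.05. Depth limits the precision of Sod3 and Gpx1 in sham, where counting error was 6.41% and 4.19% of the level.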
